A study of Mus musculus with 18 samples.

Results

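Insulin and the insulin-like growth factors signal through a small set of genes, and 10 of them were followed in cultured mouse cortical astrocytes exposed to ethanol. They were chosen by gene name from the 51912 genes counted: the ligand *Igf1*, the receptors *Igf1r* and *Insr*, the adaptors *Irs1* and *Irs2*, and the binding proteins *Igfbp2*, *Igfbp3*, *Igfbp4*, *Igfbp5* and *Igfbp7*. All 10 passed the minimum of 10 read pairs over the 18 libraries, as did 24495 genes in all. Cultures were prepared from cortices of male and female Aldh1l1-EGFP/Rpl10a mice on postnatal day 0 and grown with serum for 14 days to confluence. They were subcultured, grown for 6 more days and kept without serum for 24 h. They were then given 0 mM (control) or 50 mM ethanol in serum-free medium for another 24 h. The transgene, carried by both groups, places an EGFP-tagged ribosomal protein under the *Aldh1l1* astrocyte promoter. Translating ribosome affinity purification (TRAP) of each dish gave the IP fraction, the mRNA on tagged ribosomes. The input fraction was RNA of the whole lysate, with every cell type in the dish. There were 6 control and 6 ethanol IP libraries, and 3 control and 3 ethanol input libraries from the lysates of dishes 4 to 6. Within a fraction, the libraries are separate dishes of cultures made in the same way, so that ethanol p-values there refer to the spread between dishes. The main test (edgeR) estimates that spread partly from other genes. With 3 libraries per group in input, a gene's SE can therefore be smaller than its own libraries alone would give. The input libraries share dishes with IP libraries 4 to 6, and the main tests across fractions had no term for the dish.

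IGF-I and IGF-II act mainly on the IGF-I receptor, a tyrosine kinase closely related to the insulin receptor. Both receptors phosphorylate the IRS adaptors, which recruit PI3-kinase and so activate AKT. AKT keeps the FOXO transcription factors out of the nucleus. Among the genes that FOXO factors switch on are *Insr* and *Irs2*, so that their mRNAs rise when insulin signaling is low. The IGF-binding proteins are secreted, hold IGFs in the extracellular space and can either restrain or prolong their action, while IGFBP7 binds IGFs only weakly. In the brain, astrocytes secrete IGFBP2, and IGF-I supports neuronal growth and survival. The comparison of ethanol with control addresses whether the mRNAs of this signaling system change after exposure. That of IP with input shows which of them were relatively more or less abundant on tagged ribosomes than in the whole lysate.

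Library depth ranged from 74239854 to 132810705 read pairs on genes. *Aldh1l1* was higher in IP than in input (log2 fold change 1.05 ± 0.0216 SE, adjusted p = 5.45e-51, edgeR). Its mean was 383 CPM in IP control and 189 CPM in input control. Of 10 astrocyte markers, 8 were higher and 1, *S100b*, was lower in IP.

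*Igfbp2*, *Igfbp3*, *Igfbp7* and *Igfbp5* were the most abundant of the 10 genes, *Igfbp4* ranked below both receptors and both adaptors, and the ligand was the least abundant. Per kilobase of the longest transcript and counting only pairs of the gene's own strand, the order in IP was *Igfbp2*, *Igfbp3*, *Igfbp7*, *Igfbp5*, *Irs2*, *Igf1r*, *Irs1*, *Insr*, *Igfbp4* and *Igf1*, and it was the same in input. The ranges of neighbouring genes did not overlap in either fraction. In IP the level of *Igfbp2* was 5654 ± 321 CPM per kb (SD, n = 12), and that of *Igfbp3*, next in order, was 444 ± 16.8 CPM per kb. *Igf1r* stood at 32.0 ± 1.14 CPM per kb and *Insr* at 10.5 ± 0.727 CPM per kb in the same libraries. *Igf1* stood at 1.95 ± 0.115 CPM per kb in IP and at 4.57 ± 0.362 CPM per kb in input. Total pairs ranged from 32310 for *Igf1* to 10493500 for *Igfbp2*.

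**Figure D1:**
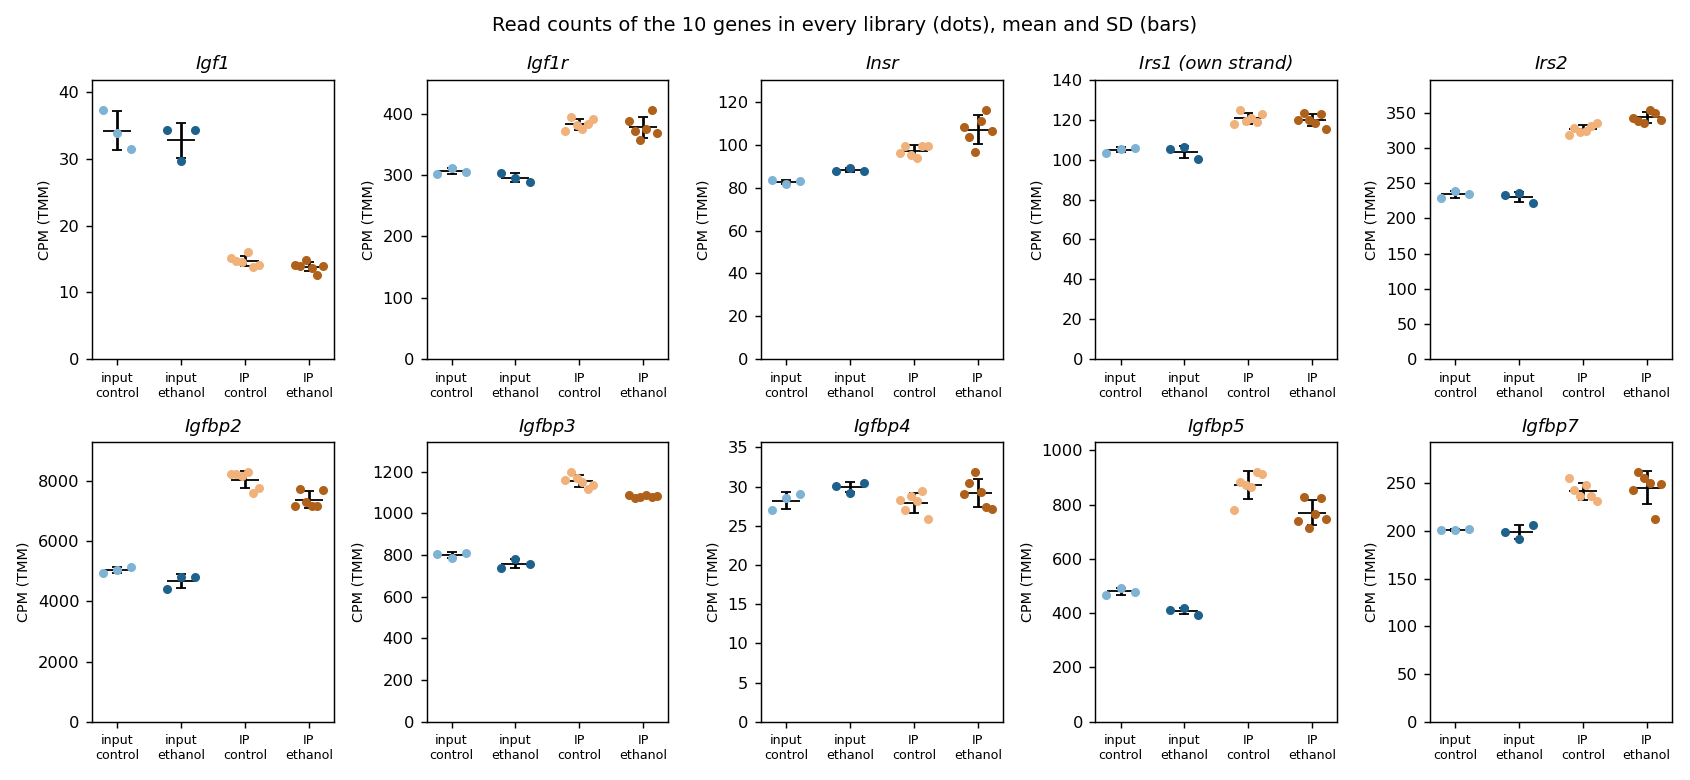
Normalized read counts (CPM, TMM-scaled, vertical axes from 0) of the 10 genes in every library by fraction and treatment. Dots are libraries and bars the mean and SD of 3 (input) or 6 (IP) libraries; *Irs1* is drawn from own-strand counts. *Igf1* lies lower in IP than in input, and *Igfbp2*, *Igfbp3* and *Igfbp5* lie lower with ethanol on average in both fractions.

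*Igfbp2*, *Igfbp3* and *Igfbp5* were downregulated by ethanol in both fractions, and *Insr* was upregulated in both. *Irs2* was upregulated in IP. With an adjusted p below 0.05, 5 of the 10 genes were called in IP and 4 in input, against 21.4% of all genes tested in IP and 15% in input. The genes tested include many with few reads. With a stricter filter on low counts (filterByExpr), 32.1% of genes were called in IP and 20.1% in input, and again 5 and 4 members. By direction, 2 members were higher and 3 lower in IP, where 11.9% of all genes were higher and 9.48% lower. In input 1 was higher and 3 were lower, where 7.21% of all genes were higher and 7.78% lower. The median log2 fold change of the 10 was -0.01 in IP and -0.04 in input, beside 0.0054 and -0.00092 for all genes. In these bulk samples, fewer cells of a type and less RNA per cell cannot be told apart.

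**Figure D2:**
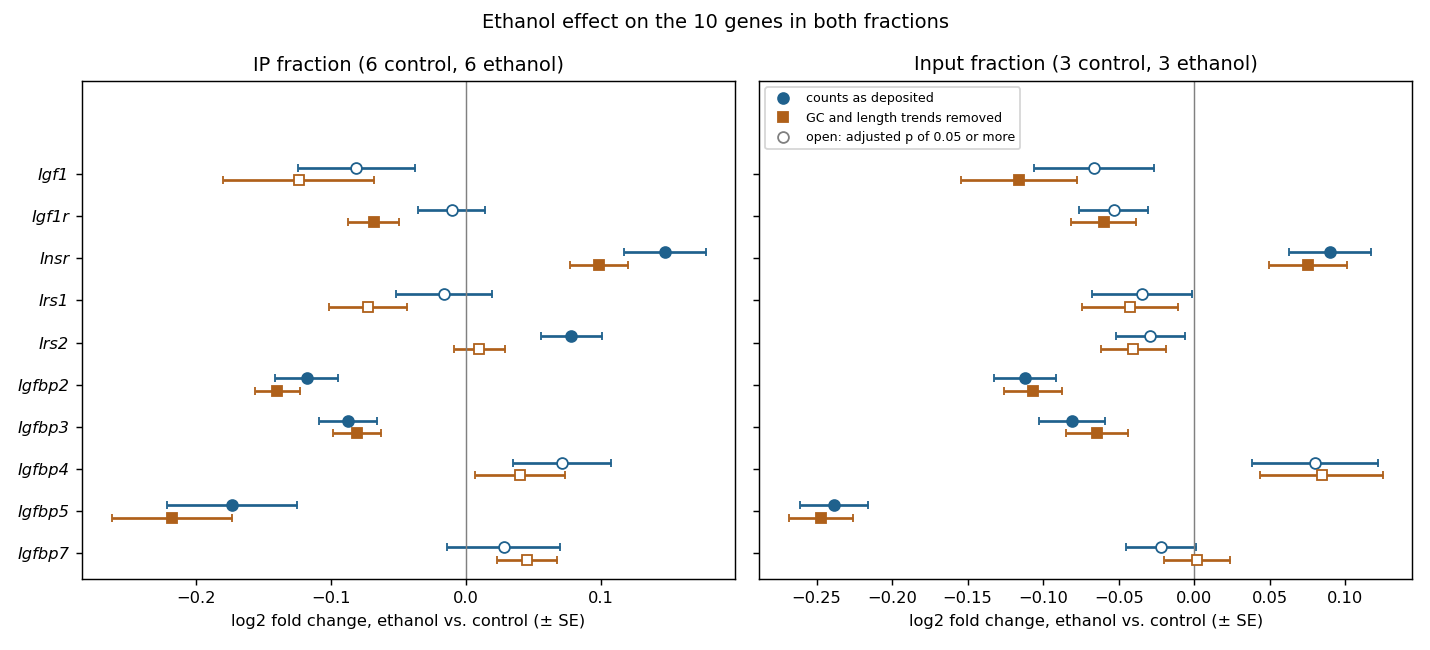
Log2 fold change of ethanol vs. control (horizontal axis, bars ± SE) for each of the 10 genes in IP (left) and input (right), from the counts as deposited (circles) and after removal of trends with GC content and transcript length (squares). Filled symbols have an adjusted p below 0.05. *Igfbp2*, *Igfbp3*, *Igfbp5* and *Insr* are filled in all 4 fits, while *Irs2* moves from 0.08 to 0.01 in IP when the trends are removed.

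*Igfbp2*, which encodes the main IGF-binding protein of the developing brain, had by far the most read pairs of the 10 genes. It took 0.793% ± 0.0257 (SD, n = 6) of all pairs on genes in the IP of control dishes and 0.730% ± 0.0264 in that of ethanol dishes. Normalized counts in IP ranged from 7597 to 8283 CPM in control (median 8184) and from 7154 to 7746 CPM with ethanol (median 7234). The highest ethanol libraries overlapped the lowest control libraries. In input, control libraries had 4944, 5037 and 5139 CPM and ethanol libraries 4420, 4808 and 4800 CPM, without overlap. The log2 fold change with ethanol was -0.12 ± 0.0236 SE in IP (adjusted p = 0.000109, edgeR) and -0.11 ± 0.0204 in input (adjusted p = 1.56e-06, edgeR). With DESeq2 the fall in input had a larger SE, 0.0449, and an adjusted p of 0.0577.

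*Igfbp3* encodes the main carrier of IGFs in blood. Its IP libraries ranged from 1118 to 1196 CPM in control (median 1156) and from 1076 to 1088 CPM with ethanol (median 1082). It was the single member whose IP groups did not overlap, which held for 9.96% of all genes. The input control libraries had 805, 784 and 810 CPM and ethanol libraries 737, 778 and 759 CPM, again without overlap. The log2 fold change was -0.09 ± 0.0217 SE in IP (adjusted p = 0.00157, edgeR) and -0.08 ± 0.0220 in input (adjusted p = 0.00287, edgeR). The call was lost in input without ethanol replicate 4, where the log2 fold change was -0.06 (adjusted p = 0.0787, edgeR). In IP it was lost in replicates 4 to 6 alone, at -0.07 (adjusted p = 0.0923, edgeR).

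*Igfbp5*, a binding protein that also attaches to extracellular matrix, had the largest fall of the 10 in both fractions. In IP it ranged from 779 to 919 CPM in control (median 879) and from 714 to 827 CPM with ethanol (median 758). Control replicate 1, at 779 CPM, lay below the 2 highest ethanol libraries, whereas the other control libraries lay above all ethanol libraries. The 3 input control libraries had 468, 492 and 479 CPM and ethanol libraries 410, 419 and 395 CPM, without overlap. The log2 fold change was -0.17 ± 0.0480 SE in IP (adjusted p = 0.0227, edgeR) and -0.24 ± 0.0225 in input (adjusted p = 1.71e-23, edgeR). Without IP ethanol replicate 1 the adjusted p in IP was 0.0515 (edgeR), at a log2 fold change of -0.16.

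The other binding proteins did not pass the test. *Igfbp4* measured 27.9 ± 1.28 CPM (SD, n = 6) without and 29.2 ± 1.79 CPM with ethanol in IP, and its log2 fold change was 0.07 ± 0.0364 SE (adjusted p = 0.176, edgeR). In input its means were 28.2 CPM in control and 29.9 CPM with ethanol, without overlap of the groups, and the test gave an adjusted p of 0.217 (edgeR). *Igfbp7* measured 242 ± 8.96 and 245 ± 17.3 CPM in IP control and ethanol (log2 fold change 0.03 ± 0.0420 SE, adjusted p = 0.736, edgeR). In input, the groups of 5 members did not overlap (*Insr*, *Igfbp2*, *Igfbp3*, *Igfbp4* and *Igfbp5*), and 27.1% of all genes had such groups. *Igfbp6* was near the limit of detection at 0.398 CPM in IP control, and for *Igfbp1* no read pair was counted in any library. *Igfbpl1*, an IGFBP-like secreted protein, fell in input (-0.23 ± 0.0594 SE, adjusted p = 0.00116, edgeR).

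*Igfbp2* and *Igfbp5* are neighbours on mouse chromosome 1 (GRCm38), from 72824503 to 72852474 on the plus strand and from 72857932 to 72874884 on the minus strand. Their 3′ ends face each other across 5457 bp with 0 annotated genes between them. *Igfbp3* lies on chromosome 11 from 7206086 to 7213923, next to *Igfbp1* at a gap of 3539 bp. The 250 bases upstream of the RefSeq start of these 3 binding proteins (GRCm38.p6) are shown because their mRNAs fell together in both fractions. They lie at chr1:72824230-72824479 (plus strand), chr1:72874866-72875115 (minus strand) and chr11:7213924-7214173 (minus strand), and are written 5′ to 3′ on the gene's strand. RefSeq also lists a downstream start of *Igfbp2*, not shown. Capitals mark the E-box CACGTG, the core bound by MYC, USF and related factors, which reads the same on both strands.
Igfbp2: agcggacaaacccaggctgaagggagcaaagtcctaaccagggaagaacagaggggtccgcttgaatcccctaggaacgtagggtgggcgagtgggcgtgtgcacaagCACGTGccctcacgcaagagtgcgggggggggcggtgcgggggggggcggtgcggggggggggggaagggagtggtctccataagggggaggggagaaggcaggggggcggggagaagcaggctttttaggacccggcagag
Igfbp5: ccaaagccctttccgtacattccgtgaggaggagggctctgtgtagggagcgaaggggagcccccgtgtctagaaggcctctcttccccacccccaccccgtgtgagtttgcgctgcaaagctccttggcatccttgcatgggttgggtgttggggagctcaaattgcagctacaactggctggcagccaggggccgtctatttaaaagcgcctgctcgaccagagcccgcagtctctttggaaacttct
Igfbp3: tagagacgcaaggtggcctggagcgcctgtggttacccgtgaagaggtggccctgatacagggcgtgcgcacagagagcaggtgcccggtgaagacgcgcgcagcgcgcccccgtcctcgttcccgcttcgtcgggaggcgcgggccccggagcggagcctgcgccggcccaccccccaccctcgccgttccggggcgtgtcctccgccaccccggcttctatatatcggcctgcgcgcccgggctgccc

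The windows differ in composition, with 67.2% G and C for *Igfbp2*, 73.2% for *Igfbp3* and 58.8% for *Igfbp5*. They hold 14, 32 and 10 CG dinucleotides in that order, and the median of all promoters in the table is 6. The E-box of *Igfbp2* lies at positions -142 to -137 before the start, and no match was found in the windows of *Igfbp3* and *Igfbp5*. An E-box occurs in 6.02% of the 32851 promoters of the same length.

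Summed levels of mural, astrocyte and microglial markers also differed between control and ethanol, without overlap of the groups in either fraction. The summed level of 9 mural markers ranged from 1746 to 1882 CPM without and from 1173 to 1373 CPM with ethanol in IP, and from 1391 to 1464 and 992 to 1061 CPM in input. Most of this sum was *Acta2*, the smooth muscle actin gene, also made by cultured astrocytes, which fell from 1589 to 1069 CPM in IP. Of the 9, 3 fell and 1 rose in IP, and 2 fell in input. The pericyte markers *Pdgfrb* (94.5 and 92.6 CPM in IP control and ethanol) and *Notch3* (117 and 126 CPM) were abundant. *Pdgfrb* did not pass the test in IP (log2 fold change -0.02, adjusted p = 0.649, edgeR), and *Notch3* was the marker that rose. *Kcnj8* had the fewest reads of the list, with 14 read pairs over all libraries. The summed level of 10 astrocyte markers was higher with ethanol, at 1799 to 1880 and 1926 to 2000 CPM in IP and 1167 to 1212 and 1222 to 1247 CPM in input. Of the 10, 4 rose and 0 fell in IP, and 4 rose and 3 fell in input. The mean of *Aldh1l1* was lower with ethanol, at 383 and 366 CPM in IP and 189 and 173 CPM in input. The summed level of 10 microglial markers was 26.2 to 29.6 and 29.9 to 33.6 CPM in IP, and 100 to 103 and 106 to 120 CPM in input. Of these, 2 rose in IP and 3 in input. Of all genes, 11.9% rose and 9.48% fell in IP, and 7.21% rose and 7.78% fell in input. The part of these cell types in the changes of the members was not tested.

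*Insr*, the insulin receptor gene, was upregulated in both fractions. In IP, control libraries ranged from 94.0 to 99.5 CPM (median 97.9) and ethanol libraries from 96.9 to 116 CPM (median 107). A single ethanol library, replicate 3 at 96.9 CPM, lay inside the control range. In input, control libraries had 83.6, 81.9 and 83.0 CPM and ethanol libraries 88.0, 89.4 and 87.7 CPM, without overlap. The log2 fold change was 0.15 ± 0.0303 SE in IP (adjusted p = 0.000276, edgeR) and 0.09 ± 0.0273 in input (adjusted p = 0.00985, edgeR). In IP replicates 1 to 3 alone it was 0.09 (adjusted p = 0.0969, edgeR). In input the call was lost without control replicate 5 (adjusted p = 0.0735, edgeR) or without ethanol replicate 5 (adjusted p = 0.0501, edgeR).

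*Igf1r*, the receptor for IGF-I, did not pass the test in either fraction. It measured 383 ± 8.82 CPM (SD, n = 6) without and 378 ± 17.2 CPM with ethanol in IP (log2 fold change -0.01 ± 0.0250 SE, adjusted p = 0.836, edgeR). In input, control libraries had a mean of 306 CPM and ethanol libraries 296 CPM (-0.05 ± 0.0229, adjusted p = 0.105, edgeR). After trends with GC content and transcript length were removed, *Igf1r* was called lower in IP (-0.07, adjusted p = 0.00415, edgeR) and in input (-0.06, adjusted p = 0.0383, edgeR). The 2 receptor mRNAs were also set against each other in each library. Per 100 *Igf1r* pairs there were 24.99 to 25.99 *Insr* pairs in the 6 IP control libraries and 27.1 to 29.6 in the 6 IP ethanol libraries. In input, the ratio was 26.2 to 27.7 in control and 29.0 to 30.4 with ethanol. The groups did not overlap in either fraction, and this ratio was picked after the values were seen, so that it was not tested. *Igf2r*, which takes up IGF-II for degradation and carries lysosomal enzymes, rose from 222 to 248 CPM in IP (log2 fold change 0.17 ± 0.0248 SE, adjusted p = 4.07e-07, edgeR) and in input (0.11 ± 0.0232, adjusted p = 4.47e-05, edgeR).

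*Irs2*, an adaptor of both receptors, was upregulated in IP. Control libraries ranged from 319 to 336 CPM (median 327) and ethanol libraries from 336 to 355 CPM (median 341), with the lowest ethanol value just under the highest control value. The log2 fold change was 0.08 ± 0.0228 SE (adjusted p = 0.00799, edgeR). Input control libraries had 229, 239 and 235 CPM and ethanol libraries 233, 236 and 222 CPM, and the groups overlapped (-0.03 ± 0.0230, adjusted p = 0.495, edgeR). With trends of GC content and transcript length removed together, the log2 fold change in IP was 0.01 (adjusted p = 0.797, edgeR), and the part of each was not tested. The *Irs2* transcript is 56.6% G and C and 6323 bases long. It also missed the threshold in replicates 1 to 3 (0.07, adjusted p = 0.19, edgeR) and in replicates 4 to 6 (0.08, adjusted p = 0.0688, edgeR).

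*Irs1*, the other adaptor, did not change detectably with ethanol. From own-strand counts, it measured 121 ± 2.75 CPM (SD, n = 6) without and 120 ± 2.97 CPM with ethanol in IP (log2 fold change -0.01 ± 0.0245 SE, adjusted p = 0.800, edgeR). In input the own-strand log2 fold change was -0.02 ± 0.0256 (adjusted p = 0.754, edgeR). There were 2.67 ± 0.0583 *Irs2* pairs per *Irs1* pair without and 2.83 ± 0.0937 with ethanol in IP, on the own-strand scale. In input the ratio was 2.22 and 2.20.

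The deposited table counted read pairs without regard to strand, and this changed *Irs1* by more than any treatment. All 2822 exon bases of Gm9747, a gene annotated on the plus strand (chromosome 1, 82233112 to 82235933), lie inside exons of *Irs1*, which is on the minus strand (82233101 to 82291416). They cover 30.9% of the exon bases of *Irs1*, and pairs that fall on both genes are counted for neither. Without strand, 76576 pairs were counted for *Irs1* over the 18 libraries, and 186411 when only its own strand was counted. Gm9747 itself had 8 pairs on its own strand. The own-strand count was 2.59 ± 0.144 times the strandless count in IP control (SD, n = 6) and 2.12 ± 0.0574 times in input control (n = 3). For *Igfbp7*, which overlaps *Polr2b*, the own-strand count was 110% of the strandless one, for *Irs2* it was 103%, and for the other members it was close to 100.

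The upstream windows of the 2 adaptor genes are shown because they share sequence elements near the start. They lie at chr1:82291440-82291689 for *Irs1* and chr8:11008930-11009179 for *Irs2*, both on the minus strand (RefSeq, GRCm38.p6), and are written 5′ to 3′ on the gene's strand. Capitals mark the E-box CACGTG and the sequence TGTTTTG, a forkhead-type core found in insulin-responsive promoters and searched on both strands.
Irs1: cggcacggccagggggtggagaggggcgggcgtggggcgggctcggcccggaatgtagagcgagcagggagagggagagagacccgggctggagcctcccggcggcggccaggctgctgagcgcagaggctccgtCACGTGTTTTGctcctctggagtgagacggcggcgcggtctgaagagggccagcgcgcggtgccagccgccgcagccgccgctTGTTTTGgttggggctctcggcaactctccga
Irs2: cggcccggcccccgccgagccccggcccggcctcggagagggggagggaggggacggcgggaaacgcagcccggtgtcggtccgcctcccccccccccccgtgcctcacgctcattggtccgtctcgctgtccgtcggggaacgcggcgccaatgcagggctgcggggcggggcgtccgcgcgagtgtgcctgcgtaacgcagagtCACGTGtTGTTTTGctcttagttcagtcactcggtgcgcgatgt

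In *Irs1* the E-box at positions -115 to -110 overlaps the forkhead-type core at -111 to -105, and a further core lies at -32 to -26. In *Irs2* the E-box at -44 to -39 is followed, after a single base, by the core at -37 to -31. TGTTTTG occurs in 5.56% of all 32851 promoters, and 9 of the 10 members had an entry in the table. Among these members it was found in the windows of *Irs1* and *Irs2* alone. The core TGTTTAC, present in 3.17% of promoters, was found in none of them.

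*Igf1* did not pass the test for ethanol in either fraction. In IP, control libraries ranged from 13.8 to 16.0 CPM (median 14.6) and ethanol libraries from 12.6 to 14.8 CPM (median 13.9). The log2 fold change was -0.08 ± 0.0432 SE (adjusted p = 0.197, edgeR). In input, control libraries had 37.4, 33.8 and 31.5 CPM and ethanol libraries 34.3, 29.7 and 34.3 CPM (-0.07 ± 0.0398, adjusted p = 0.316, edgeR). The groups overlapped in both fractions. In input *Igf1* was called lower when GC and length trends were removed (-0.12, adjusted p = 0.0214, edgeR) and without control replicate 6 (-0.12, adjusted p = 0.0448, edgeR), and was at 0.0008 without control replicate 4. *Igf2* measured 1.71 CPM in IP control and 3.37 CPM in input control, *Ins2* 0.0461 and 0.122 CPM, and no read pair was counted for *Ins1*.

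Beyond the 10 genes, 55 of 57 other genes of the pathway were tested (*Ins1* and *Igfbp1* had too few pairs). In IP 22 were upregulated and 3 downregulated, and in input 11 were upregulated and 4 downregulated. Of all genes, 11.9% were higher and 9.48% lower in IP, and 7.21% higher and 7.78% lower in input. The median log2 fold change of the list was 0.07 in IP and 0.02 in input. With the stricter filter on low counts, 21 of 54 were higher and 5 lower in IP, beside 16.1% and 16% of genes tested. In input 10 of 55 were then higher and 4 lower, beside 9.6% and 10.5%. With GC and length trends removed, the IP counts were 13 up and 8 down, beside 10.7% and 11.2% of all genes, and the input counts 11 up and 7 down, beside 7.09% and 7.89%. In IP the largest increases were *Trib3*, an inhibitor of AKT (0.46 ± 0.0816 SE, adjusted p = 1.29e-05, edgeR), and *Foxo4* (0.27 ± 0.0265, adjusted p = 1.69e-12, edgeR). The decreases were *Adamts1*, an extracellular protease (-0.23 ± 0.0269), *Akt1* (-0.09 ± 0.0250) and the PI3-kinase subunit *Pik3cb* (-0.07 ± 0.0273). In input the largest increases were *Trib3* (0.36 ± 0.113) and *Htra1*, a protease that cleaves IGFBPs (0.24 ± 0.0259), and *Adamts1* fell by 0.24 and *Pik3cb* by 0.14 on the log2 scale.

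By role, 11 of 22 genes of the kinase arm from PI3-kinase to FOXO rose and 2 fell in IP, and 6 rose and 1 fell in input, beside the same shares of all genes. With trends removed, 6 rose and 5 fell in IP, and 5 rose and 3 fell in input. *Foxo3* rose in both fractions (0.16 ± 0.0229 in IP and 0.10 ± 0.0231 in input, on the log2 scale). Of 11 negative regulators, 6 rose and 0 fell in IP, and 2 rose in input, and with trends removed 4 rose in IP and 2 in input. Of 6 IGFBP proteases and their regulators, *Htra1* rose and *Adamts1* fell in both fractions, and *Stc1*, an inhibitor of such a protease, fell in input (-0.11 ± 0.0250). Of 11 adaptors, *Irs2* and 3 others rose in IP, and with trends removed 1 rose and 1 fell. *Foxo3*, *Htra1* in IP and *Stc1* with ethanol were named after their values were seen, as were the single marker genes above and below other than *Aldh1l1*.

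*Insr* and *Irs2* are targets of FOXO factors, and 11 of 14 other such targets were tested (*Igfbp1*, *Pck1* and *G6pc* had too few pairs). In IP 10 of the 11 were upregulated and 0 downregulated, and in input 7 were upregulated and 0 downregulated. Of all genes, 11.9% were higher in IP and 7.21% in input. The median log2 fold change was 0.18 in IP and 0.13 in input, beside 0.0054 and -0.00092 for all genes. The largest increases were *Sesn3*, a stress-response gene that restrains mTORC1 (0.25 ± 0.0265 SE, adjusted p = 1.96e-10, edgeR, in IP), and *Gadd45a*, a DNA damage response gene (0.25 ± 0.0319, adjusted p = 1.53e-12, edgeR, in input). *Sesn3* rose from 385 to 457 CPM in IP and from 282 to 334 CPM in input. The single target not called in IP was *Trim63* (-0.41 ± 0.266), which also had the widest error. With GC and length trends removed, 9 of the 11 were called higher in IP and 7 in input. With the stricter filter on low counts, 10 were higher in IP and 7 in input, beside 16.1% and 9.6% of genes tested. The list was written with earlier results of these data known and is described by its counts alone.

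**Figure D3:**
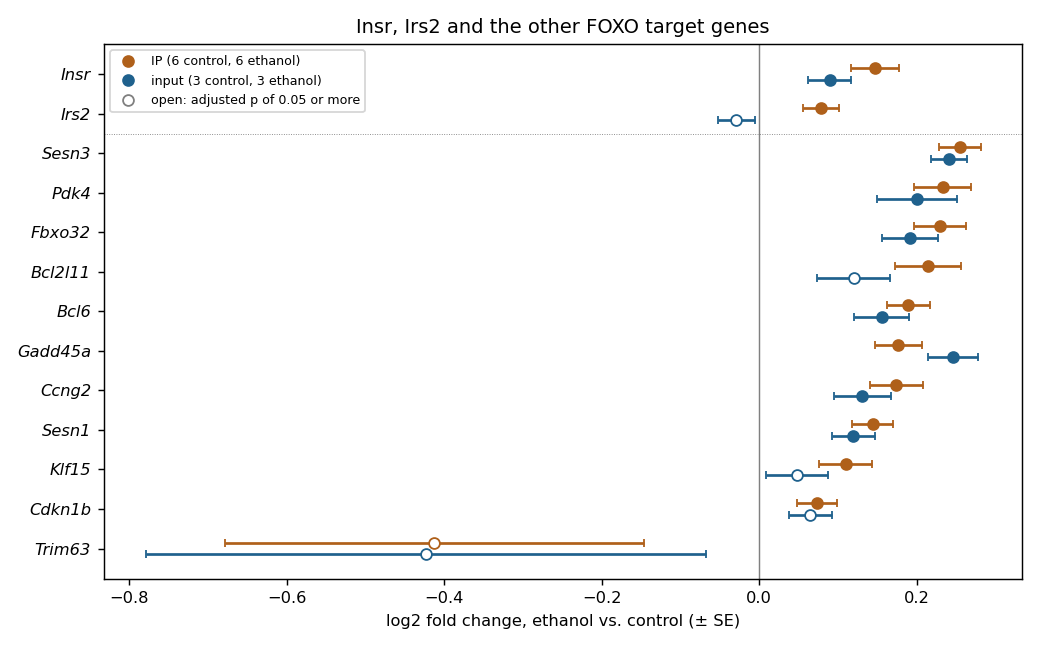
Log2 fold change of ethanol vs. control (horizontal axis, bars ± SE) for *Insr*, *Irs2* and the 11 other FOXO target genes tested, in IP and input, with open symbols for an adjusted p of 0.05 or more. In IP 10 of the 11 are filled and above 0, and in input 7; *Irs2* is above 0 in IP only, and *Trim63* has the widest bars.

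The ethanol effect of a member was not shown to differ between the fractions. A fit of all 18 libraries gave the difference of the effects (IP minus input). It was called for 0 of the 10 members and 0 of all genes (0% of those tested, edgeR), and DESeq2 called 2 genes. An unadjusted p below 0.05 (edgeR) was found for 1459 of 24495 genes, a share little above the 0.05 expected without any difference. With the dish as a block, 102 genes (0.416%) were called, again without a member. *Irs2* had the largest difference, 0.10 ± 0.0369 SE on the log2 scale (unadjusted p = 0.0117, adjusted p = 0.766, edgeR), and 0.12 ± 0.0340 with the dish as a block (adjusted p = 0.0793, edgeR). For *Insr* the difference was 0.05 ± 0.0472 (adjusted p = 0.932, edgeR), and 0.11 with the block (adjusted p = 0.288, edgeR). Within dishes, the log2 ratio of IP to input for *Irs2* was 0.50, 0.47 and 0.52 in control and 0.61, 0.57 and 0.61 with ethanol. The ethanol dishes thus lay above the control dishes, but how many of all genes had such groups was not counted. For *Insr* the ratio was 0.17, 0.28 and 0.26 in control and 0.34, 0.38 and 0.28 with ethanol, and the groups overlapped. With the block and without GC and length trends, the difference for *Irs2* was 0.04 (adjusted p = 0.899, edgeR).

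**Figure D4:**
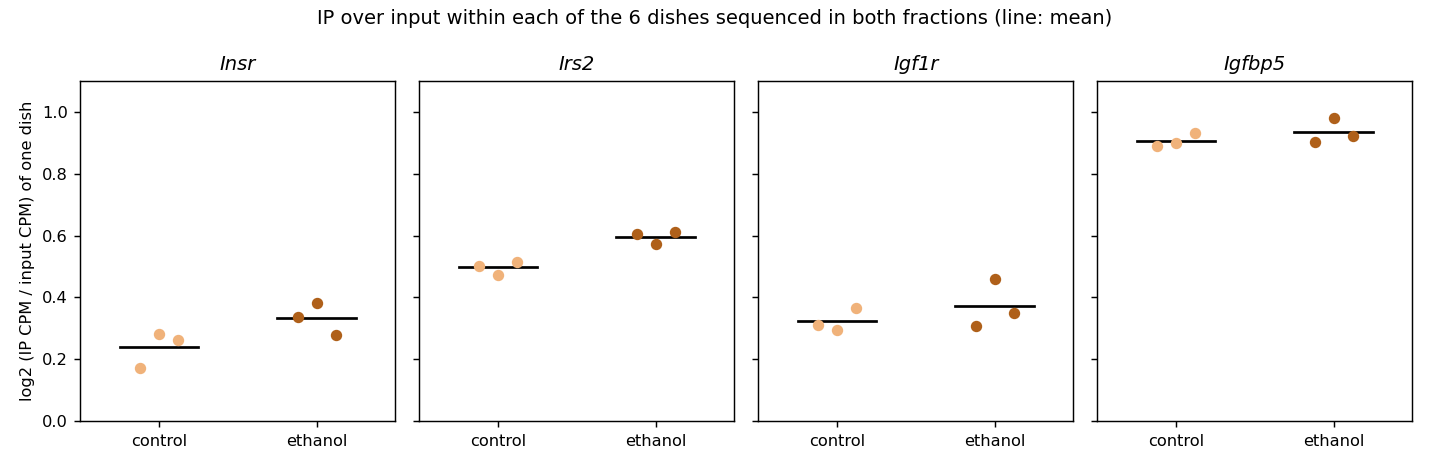
Log2 ratio of IP to input CPM (vertical axis) for *Insr*, *Irs2*, *Igf1r* and *Igfbp5* in each of the 6 dishes sequenced in both fractions, by treatment; dots are dishes and lines group means. For *Irs2* the 3 ethanol dishes lie at 0.57 to 0.61 and the 3 control dishes at 0.47 to 0.52, while the groups overlap for *Insr*, *Igf1r* and *Igfbp5*.

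Compared with input, 7 members were enriched in IP and 2, *Igf1* and *Irs1*, were depleted in the deposited strandless counts. With own-strand counts *Irs1* turned, and 8 were enriched and 1 depleted. The 9 called members stand beside 51% of all genes, with 25.2% of all genes higher and 25.8% lower. With the stricter filter on low counts, 68% of genes were called, and again 9 members. The median log2 fold change of the 10 members was 0.31, beside -0.03 for all genes. *Igfbp5* (0.89 ± 0.0381 SE, adjusted p = 6.69e-13, edgeR) and *Igfbp2* (0.67 ± 0.0211, adjusted p = 6.96e-30, edgeR) were the most enriched. *Igfbp3* and *Irs2* followed at 0.52 ± 0.0177 and 0.53 ± 0.0198. *Igf1r* (0.34), *Igfbp7* (0.28) and *Insr* (0.26) were enriched less, and *Igfbp4* did not pass the test (-0.02 ± 0.0300, adjusted p = 0.549, edgeR). For 8 members the IP and input libraries did not overlap, as for 25% of all genes. These enrichments were below that of *Aldh1l1*, whose log2 fold change was 1.05.

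*Igf1* was depleted in IP, by -1.23 ± 0.0344 SE on the log2 scale (adjusted p = 2.60e-39, edgeR). The 12 IP libraries lay between 12.6 and 16.0 CPM and the 6 input libraries between 29.7 and 37.4 CPM. Within dishes, the log2 ratio lay between -1.33 and -1.16. *Igf2* was depleted too (-0.93 ± 0.0797, adjusted p = 6.42e-17, edgeR). Of 10 microglial markers 0 were higher and 9 lower in IP, with a median log2 fold change of -2.46, and their summed level was 26.2 to 33.6 CPM in IP and 100 to 120 CPM in input. In input control the 10 markers ranged from 0.0888 CPM (*P2ry12*) to 36.4 CPM (*Cd68*), with *Csf1r* at 23.1 CPM and *C1qa* at 14.1 CPM, beside 34.2 CPM for *Igf1*, and none was at 0. Of 8 fibroblast markers 2 were higher and 5 lower in IP (median -1.59), with a summed level of 126 to 144 CPM in IP and 238 to 245 CPM in input. The part of these cells in the depletion of *Igf1* was not tested.

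**Figure D5:**
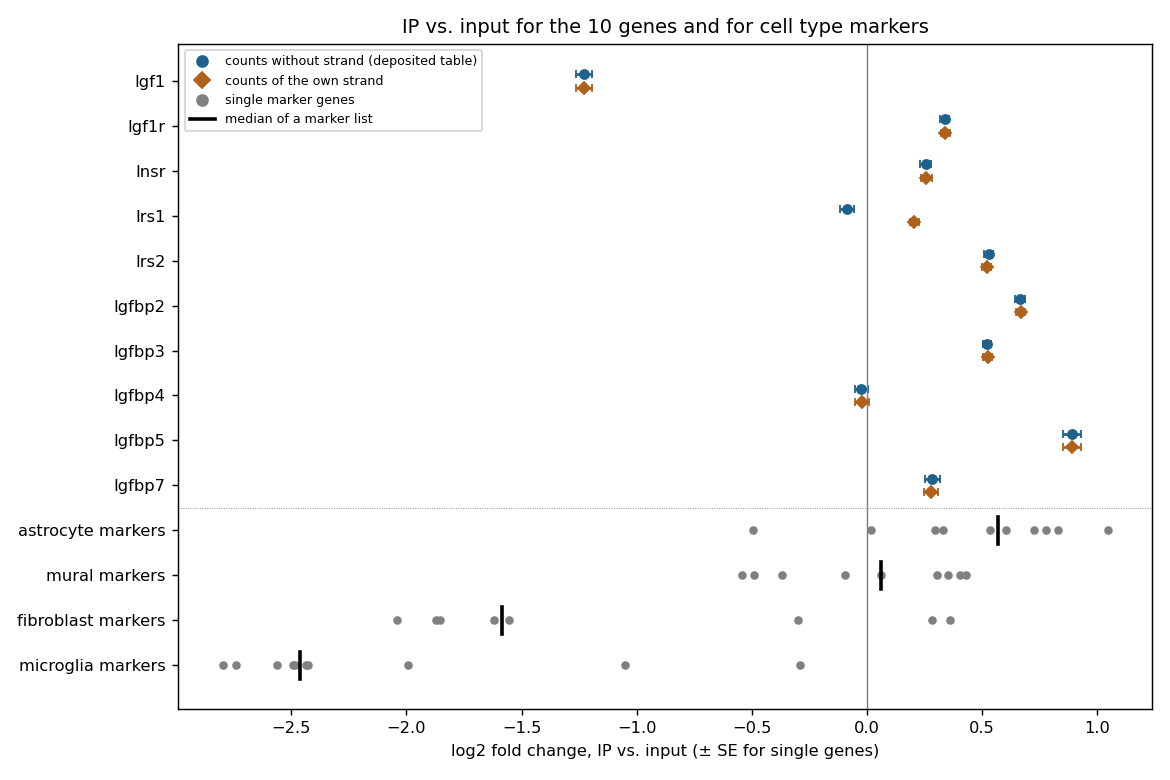
Log2 fold change of IP vs. input (horizontal axis, bars ± SE) for the 10 genes, from strandless counts (circles) and own-strand counts (diamonds), above the single markers (grey dots) and medians (black lines) of 4 cell types. *Igf1* at -1.23 lies between the fibroblast and astrocyte marker medians, and *Irs1* is the member whose sign depends on the strand, at -0.09 and 0.20.

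*Irs1* changed direction with the counting. From strandless counts it was depleted in IP (-0.09 ± 0.0304 SE, adjusted p = 0.0170, edgeR), and from own-strand counts it was enriched (0.20 ± 0.0198, adjusted p = 1.61e-14, edgeR). Own-strand levels were 115 to 125 CPM in the 12 IP libraries and 100 to 106 CPM in the 6 input libraries, without overlap, and 6 of 6 dishes had a higher level in IP. The strandless call was also lost with the dish as a block (-0.03, adjusted p = 0.404, edgeR) and without input control replicate 5 (-0.07, adjusted p = 0.0573, edgeR) or input ethanol replicate 5 (-0.07, adjusted p = 0.0590, edgeR). No other member changed sign between the strandless and own-strand counts in this comparison.

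Of the other pathway genes, 26 were enriched in IP and 21 depleted. The largest enrichments were *Igfbpl1* (0.76 ± 0.0367 SE), *Adamts1* (0.58 ± 0.0228) and *Htra1* (0.55 ± 0.0217). The largest depletions were *Stc1* (-1.77 ± 0.0218), *Igf2* and *Enpp1*, an inhibitor of the insulin receptor (-0.92 ± 0.108). *Stc1* measured 36.0 CPM in IP control and 126 CPM in input control. With the members counted in, all 3 ligands tested were lower in IP, whereas 3 of 4 receptors and 6 of 8 binding proteins were higher. The ligand *Ins2* had only 137 pairs over all libraries. Of all genes, 25.2% were higher and 25.8% lower in IP.

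The genes whose levels followed each called member most closely over the 12 IP libraries were found by Pearson's r of log2(CPM + 1) with 5 CPM as the lowest mean level admitted. They share libraries, depth and treatment with the member, so that r is a description. *Insr* was most like *Ano3* (r = 0.974) and *Ice1* (0.965), and *Irs2* most like *Ptprd* (0.964) and *Plce1* (0.956). *Igfbp2* was most like *Cox6a1* (0.977) and *Uqcrq* (0.967), which encode subunits of respiratory chain complexes. *Igfbp3* was most like *Nop56*, a nucleolar protein gene (0.974), and *Adsl*, a gene of purine synthesis (0.973). *Igfbp5* was most like *Rmnd1* (0.975) and *Prss23* (0.967).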

How the data were processed

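Per the labels and the study's methods, the authors trimmed paired reads of stranded total RNA libraries with Trimmomatic, ran STAR against GRCm38, and deposited raw counts of read pairs per gene, without normalization. SAMtools is also named in the submitters' notes. Versions were not given in the sources used here. The deposited table holds strandless counts and equals those of the single files (0 differences). Own-strand counts came from the same files. Pairs mapped to several places (3.60% on average) or to several genes (5.50%) were left out by the authors' counting.

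The members and gene lists were chosen with earlier results of these data known. Named besides the 10 members were the 3 largest increases and decreases per comparison among other pathway and FOXO target genes (adjusted p below 0.05, at least 1 CPM) and the 2 genes most like each member called in IP.

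CPM were scaled by TMM. Genes reaching 10 pairs in total were tested with edgeR 4.0.16 (glmQLFit robust, glmQLFTest) in R 4.3.3, with Benjamini-Hochberg adjustment over all of them and a threshold of 0.05. The SE is the log2 fold change divided by the square root of F. Ethanol was tested within each fraction, IP vs. input over 18 libraries with treatment as a term, and the difference of the effects as an interaction. Lengths came from GENCODE M21, promoters from RefSeq. Trends with GC content and length were removed with splines of 4 degrees of freedom per library.

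Alternatives were DESeq2 1.42.0, other size factors and filters, own-strand counts, trend removal, replicate subsets, blocks and leaving out each library. Recounting the FOXO target and other pathway lists under these settings was chosen after seeing the data. The result of 1 gene of the lists is not reported here. The fits were also run on simulated counts with the same spread for every gene and no shared dishes. Such counts cannot check how the fits handle spread that differs between genes, or the pairing. IP and input of a dish come from the same lysate and their deviations correlated at 0.0349 to 0.209, so that the dish is a pairing. Depth was high: the fewest pairs of a member in a library were 1026 (*Igf1*).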

Additional observations from a re-analysis of the deposited data

Results flagged for a closer look

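A sample far from the others was found in 2 of the 20 groups of 6 IP libraries examined, and chance flags about 1 in 20. *Igfbp5* in IP control replicate 1 was at 778.7 CPM, while the other 5 libraries lay between 867 and 919 CPM. *Igfbp7* in IP ethanol replicate 5 was at 212.2 CPM, while the other 5 lay between 243 and 261 CPM. Without that library *Igfbp7* was called higher with ethanol in IP (log2 fold change 0.06, adjusted p = 0.04997, edgeR).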

How the results depend on the processing

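In IP, 3 members were called in replicates 1 to 3 (2995 genes in all, and 14 other pathway genes) and 3 in replicates 4 to 6. In input, 2 members and 2175 genes were called in a single fit over 18 libraries, where *Insr* (adjusted p = 0.131, edgeR) and *Igfbp3* (adjusted p = 0.0751, edgeR) missed the threshold. The difference between fractions was called for 2 genes with DESeq2, 102 with the dish as a block and 47 with the block and GC and length trends removed, and for 0 to 1 genes when a library was left out. The replicate subsets also held fewer libraries, and the cause of these changes was not tested.

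Signs turned for members that were not called. In IP replicates 4 to 6, *Igf1r* was at 0.0009, *Irs1* at 0.0139 and *Igfbp7* at -0.0066 on the log2 scale, and *Igfbp7* in input was at 0.0016 with trends removed. With each library left out in turn, *Irs1* ranged from -0.0494 to 0.0013 in IP and from -0.0806 to 0.0053 in input, *Igf1* from -0.1236 to 0.0011 in input and *Igfbp7* from -0.0518 to 0.0042 in input. *Irs1* in IP vs. input was 0.2049 from own-strand counts, the one sign change of a called value. *Igfbp4* was called lower in IP vs. input with total counts (-0.07, adjusted p = 0.0313, edgeR). *Igf1r* in input was called lower without ethanol replicate 4 (-0.07, adjusted p = 0.0398, edgeR).

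The labels do not say whether control and ethanol dishes of one number share more than that number. Their deviations correlated at -0.153 to 0.417 in IP and 0.0375 to 0.0750 in input. For dishes of different numbers the range was -0.384 to 0.374 in IP and -0.119 to 0.0616 in input. With the number as a replicate block, 5782 genes were called in IP and 3829 in input, and the same members as without it. With the dish as a block, 11659 genes were called in IP vs. input, and *Irs1* was the only member whose call changed.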
